A study of Mus musculus with 1094 samples.

Results

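Among cells sorted from the mouse dorsal cortex as neural stem cells, 246 carried more transcript of neuron genes than of radial glia genes. They were chosen from the 532 cells of the 8 stem cell (NSC) files that had 1000 or more genes at 1 TPM (a gene's share of a cell's transcripts, corrected for gene length). A cell was a member when its mean log2(TPM + 1) over Neurod6, Neurod2, Tubb3, Dcx, Tbr1, Map2, Stmn2 and Bcl11b was at or above its mean over Sox2, Sox9, Nes, Vim, Slc1a3, Fabp7, Hes1 and Hes5. Members were 46.2% of those cells (95% exact binomial interval 41.9 to 50.6), out of 1094 cells in the whole series. Because the measured values chose them, their 16 rule genes and their contrast with the other NSC-file cells are given as a description and support nothing.

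All groups were wild-type female C57Bl/6 mice, and cells were sorted for GFP by flow cytometry and captured on a Fluidigm C1 microfluidic chip. NSC came from Hes5::GFP mice, a reporter of Notch activity, at E10.5, E11.5, E13.5, E15.5, E17.5, E18.5, P0 and P1. Basal progenitors (BP) came from Tbr2::GFP mice at E12.5, E14.5, E16.5, E18.5 and P0. Newborn neurons (NBN) came from Tbr2::GFP mice at stages E16.5 and E18.5 and, after birth, P1 and P3, so that the controls carry another reporter than the members. Tbr2 is another name of Eomes. The labels give the postnatal files ages of 1 day for P0, 2 days for P1 and 4 days for P3, and they name no animals, so all cells of 1 population and stage are called a library and count as 1 sample. No 2 deposited cell profiles were identical. The series has 1094 cells in 17 libraries of 39 to 89 cells, and 23 cells had under 1000 genes.

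Radial glia are the stem cells of the developing cortex. Notch signalling keeps them in that state through Hes genes, and their daughters are either neurons or basal progenitors, which express Eomes and divide once or a few times to give neurons. A young excitatory neuron switches on Neurod2 and Neurod6, then the cytoskeletal genes Tubb3, Dcx and Stmn2, then layer and synapse genes.

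The same score rule was applied to the other files, and cells that met it are called neuron-profile cells throughout. It took 329 of 332 BP cells and 173 of 207 NBN cells with 1000 or more genes. Several libraries stand apart. In NBN P3 only 10 of 39 cells met the rule (25.6%), 6 of these 10 held 3 or more microglia markers at 10 TPM, and the summed level of the 8 microglia markers was 10394 TPM against 15.0 in the lowest NBN library. NSC P0 and NSC P1 held 6 members each and NSC E10.5 only 3, which kept E10.5 out of the tests between populations. In NSC E11.5, 27 of 37 members held the erythroid set of globin genes, with a summed level of 9268 TPM over its 8 genes, against a median of 3.18 TPM over the 7 NSC libraries. Median genes per member were 4929.5 (1753 to 9048), and doublets were not called because TPM keep no depth.

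Membership varied widely with stage. At E10.5, 3 of 88 cells were members (3.41%). The share was 63.8% at E11.5 (37 of 58, interval 50.1 to 76.0), 56.1% at E13.5 (37 of 66, 43.3 to 68.3), 90.7% at E15.5 (78 of 86, 82.5 to 95.9) and 78.9% at E17.5 (60 of 76, 68.1 to 87.5). It was 28.8% at E18.5 (19 of 66, 18.3 to 41.3). The P0 file had 13.3% (6 of 45, 5.05 to 26.8) and the P1 file 12.8% (6 of 47, 4.83 to 25.7). Hence the middle stages held nearly all members and the youngest and oldest files few. Each stage is 1 library, so stage and capture cannot be told apart.

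**Figure D1:**
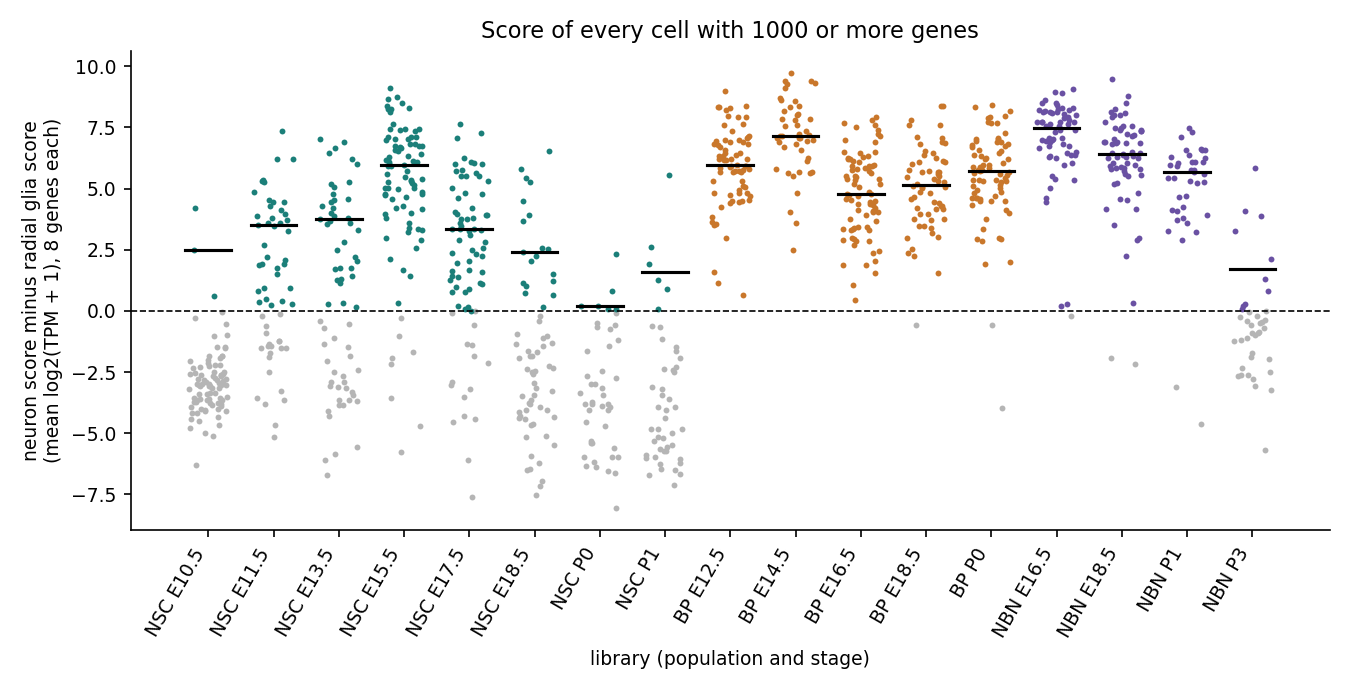
Neuron score minus radial glia score (mean log2(TPM + 1) over 8 genes each, linear axis) of every cell with 1000 or more genes, by library. Coloured points at or above the dashed line at 0 are neuron-profile cells, grey points are other cells, and black bars are medians of the coloured points. The medians are 5.95 in NSC E15.5 and near the line, at 0.20, in NSC P0.

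The margin by which members passed also differed between stages. The median difference of the scores was 5.95 log2 units at E15.5, beside 5.95 in BP E12.5 and 7.49 in NBN E16.5. It was 3.52 at E11.5, 3.77 at E13.5, 3.36 at E17.5 and 2.42 at E18.5. At P0 it was 0.20 and at P1 1.59. In all, 31 members lay within 1 log2 unit inside the threshold and 25 other NSC-file cells within 1 unit outside it. The nearest member was 0.00793 above and the nearest other cell 0.00437 below (a difference of -0.00437). Of the 246 members, 31 (12.6%) had at least 4 of 8 genes at 10 TPM on both sides of the rule, and 27 had none of the radial glia genes at that level.

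The 4 genes that mark these cells as neurons did not cover all stages alike. Tubb3, a neuronal tubulin, reached 10 TPM in 238 of 246 members and Dcx, a microtubule protein of migrating neurons, in 225. Neurod6, a transcription factor of cortical excitatory neurons, reached it in 163 and Tbr1, a factor of early-born deep layer neurons, in 87. Neurod6 was at 10 TPM in 6 of 37 E11.5 members, 36 of 37 E13.5 members, 73 of 78 E15.5 members and 39 of 60 E17.5 members. It was at that level in 7 of 19 E18.5 members, 1 of 6 P0 members and 1 of 6 P1 members. None of the 3 E10.5 members had it at that level. Over the 7 libraries with 5 or more members its mean ran from 18.2 TPM at E11.5 to 2228 TPM at E15.5. All 4 are rule genes, so these counts describe the chosen cells and are no evidence of their type. Cells of the same files that were not members also carried Neurod6 at some stages. It was at 10 TPM in 7 of 8 of them at E15.5, 10 of 29 at E13.5 and 9 of 39 at P0. At E17.5 it was at that level in 1 of 16, and at E11.5 and E18.5 in 0 of 21 and 0 of 47.

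Hes5, the gene whose reporter was used for the sort, reached 10 TPM in 9 of 246 members and in 72 of 286 other cells of the same files. It was found at that level in 1 of 329 BP and 0 of 173 NBN neuron-profile cells. Hes5 is a rule gene, so the lower share among members is in part set by the choice. Fabp7, a lipid-binding protein of radial glia and also a rule gene, was at 10 TPM in 122 members, and Vim, their intermediate filament, in 46.7% of members. Counted at 10 TPM, Pax6 did not separate the groups: it reached that level in 219 members, 255 other NSC-file cells, 315 BP cells and 78.0% of NBN neuron-profile cells. S100b, an astroglial marker, was likewise at 10 TPM in 241 members, 266 other NSC-file cells and 327 BP cells, so neither count was read as evidence of a progenitor or glial state. The level of Pax6 did differ in some files. Its median was 16.2 TPM in E15.5 members against 269 TPM in the other cells, and 26.3 against 102 TPM at E17.5. At E10.5 (102 against 79.8 TPM) and P1 (14.7 against 9.86 TPM) the median was higher in members.

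Outside the rule genes the members differed from the other cells of their files across many neuron and glia genes, which is the rule's own contrast. At E15.5, Mllt11 was 7.02 log2 units higher in members in mean log2(TPM + 1), with a mean of 902 TPM against 11.0 TPM. Nmt2, Crmp1 and Snap25, which encodes a synaptic vesicle fusion protein, were 5.86, 5.84 and 5.67 units higher. Aldoc, a glycolytic enzyme of radial glia and astrocytes, was lower there (-8.02), as were Ddah1 (-7.29), Dbi (-7.15) and Phgdh, the first enzyme of serine synthesis (-6.24). Only 8 cells at E15.5 were not members. Averaged with equal weight over the 6 other files with 5 or more members, Nrep (4.80), Mllt11 (4.80), Crmp1 (4.01) and Tagln3 (3.89) led the higher genes, and Pdpn (-4.30), Dbi (-4.29), Aldoc (-4.24) and Ddah1 (-4.17) the lower ones. Mllt11, Crmp1, Tagln3, Dbi, Aldoc and Ddah1 had the same sign in all 6 of these files.

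Most members held neuron and progenitor transcripts at once, counted on genes outside the rule. Members were chosen for neuron genes over radial glia genes, so their share for other early neuron genes follows in part from that choice and is a description. A cell was said to hold a set when at least 3 of its genes reached 10 TPM. The set of 18 other early neuron genes, such as Elavl3, Elavl4 and Myt1l, was held by 239 of 246 members (97.2%). The basal progenitor set of 14 genes, led by Eomes, Neurod1 and Insm1, was held by 146 (59.3%), and the G2/M set of 19 mitotic genes by 80 (32.5%). In 161 members (65.4%) the early neuron set was held together with the basal progenitor or the G2/M set. In 78 (31.7%) it was held without either, and 7 members held a progenitor set without the early neuron set. BP neuron-profile cells divided in a like way, with 225 of 329 (68.4%) holding both kinds and 97 (29.5%) the early neuron set without either. Among NBN neuron-profile cells, 29 of 173 (16.8%) held both kinds and 139 (80.3%) the early neuron set without either. These pooled shares weight large libraries more and have no test.

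Members with and without mitotic genes can be set side by side as pooled cells. The 80 members holding the G2/M set had a median neuron score of 5.17 and a median radial glia score of 2.48, against 6.33 and 1.52 in the 166 others. The scores are the values that chose the members, and the pooled medians mix libraries that differ in both score and G2/M share, so no difference within libraries is read from them. Median genes per cell were 5052.5 and 4860.5. The G2/M holders still had a mean of 6.98 of the 18 other early neuron genes at 10 TPM, against 8.95. Of the 80, 58 also held the basal progenitor set and 35 also held the synapse set of 16 genes. Whether such a cell is 1 cell or 2 captured together was not tested.

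By library, G2/M shares of members were 51.4% at E11.5, 45.9% at E13.5, 15.4% at E15.5, 26.7% at E17.5, 26.3% at E18.5, then 83.3% in P0 and 66.7% in P1. Those of BP neuron-profile cells were 23.6%, 17.8%, 6.33%, 6.67% and 4.11% from E12.5 to P0, and those of NBN were 8.06%, 3.13%, 0% and 20.0% from E16.5 to P3. Thus the lowest NSC value, at E15.5, lay within the range of BP and NBN, and the other 6 lay above both. The mean over libraries was 45.1% ± 24.3 (SD, n = 7) in NSC against 11.7% ± 8.52 (n = 5) in BP, with a two-sided exact permutation p of 0.0139, and against 7.80% ± 8.79 (n = 4) in NBN, with an exact permutation p of 0.0242. After Benjamini-Hochberg adjustment over the 10 tests of this family both were 0.0606, above the threshold of 0.05. These tests had no age term. NBN starts at E16.5 and NSC at E11.5, so sort and age are mixed in the comparison with NBN. With a score margin of 2 log2 units the difference from BP went from 33.4 to 14.51 percentage points (exact permutation p = 0.175) and that from NBN from 37.3 to 23.3. That margin left 1 member in NSC P0 and 2 in NSC P1, so both libraries, which had the highest G2/M shares, dropped out (n = 5 NSC libraries). The change thus mixes the stricter score with their loss. With markers counted at 1 TPM the difference from BP was 17.7 points (exact permutation p = 0.145). A separate count of 0 of 37 in NBN P1 allows a share of up to 9.49% by the exact interval.

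The basal progenitor set was held by 56.8%, 83.8%, 51.3%, 65.0%, 36.8%, 83.3% and 16.7% of members from E11.5 to P1. In BP the shares ran from 60.3% to 75.9%, and in NBN they were 24.2%, 18.8%, 0% and 0%. The NSC range thus takes in the whole BP range and, at P1, reaches into that of NBN. The mean was 56.2% ± 24.3 (SD, n = 7) in NSC and 10.7% ± 12.6 (n = 4) in NBN, with an exact permutation p of 0.0182 (adjusted 0.0606). Against BP, at 68.2% ± 6.19 (n = 5), the exact permutation p was 0.324. The set of 16 other radial glia genes was held by 73.2% ± 18.0 of members (n = 7), 66.4% ± 5.15 of BP (n = 5) and 51.9% ± 15.46 of NBN cells (n = 4), with adjusted exact permutation p-values of 0.49 and 0.145. That set contains Pax6, which most cells of every population carried.

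**Figure D2:**
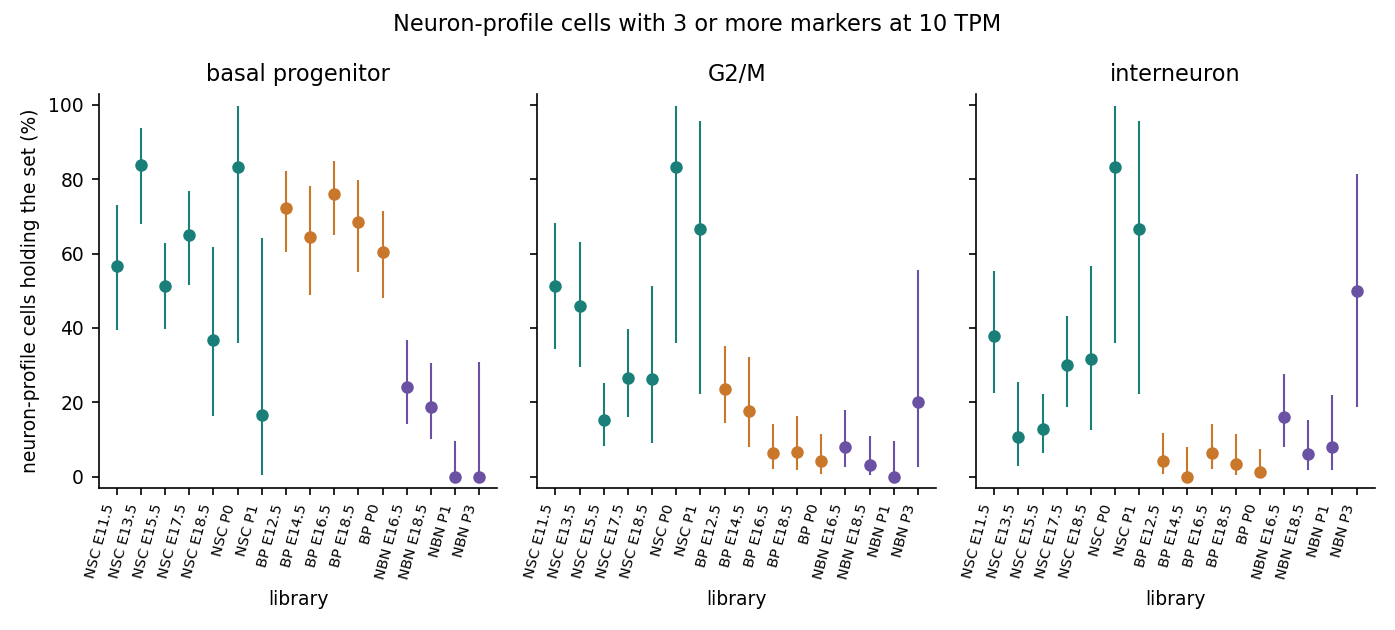
Share (%) of neuron-profile cells holding at least 3 markers at 10 TPM, by library, for the basal progenitor, G2/M and interneuron sets. Points are libraries (NSC green, BP orange, NBN purple) and bars are 95% exact binomial intervals, which cover counting error only. The NSC shares for interneuron genes, from 10.8% at E13.5 to 83.3% at P0, lie above every BP share.

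Eomes, the factor that defines basal progenitors, reached 10 TPM in 106 of 246 members, in 171 of 329 BP and in 5 of 173 NBN neuron-profile cells. Its mean over members was lowest at P1 (0.14 TPM), had a median of 198 TPM over the 7 NSC libraries and was highest at E17.5 (388 TPM). It ran from 114 to 364 TPM in the BP libraries, and was 13.53, 0.43, 0.29 and 0.17 TPM in the NBN libraries from E16.5 to P3. All NSC libraries but P1 thus lay above every NBN library and overlapped BP. Neurod1, a factor switched on in basal progenitors and young neurons, was at 10 TPM in 126 members, and Insm1, which promotes the step from radial glia to basal progenitor, in 80.

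A second group of members carried genes of inhibitory interneurons, which arise in the ventral telencephalon and migrate into the cortex. The interneuron set (14 measured genes, among them Gad1 and Gad2 for GABA synthesis and the Dlx factors) was held by 62 of 246 members (25.2%), 11 of 329 BP (3.34%) and 22 of 173 NBN cells (12.7%). By NSC library the shares were 37.8%, 10.8%, 12.8%, 30.0%, 31.6%, 83.3% and 66.7% from E11.5 to P1, and those of BP were 4.17%, 0%, 6.33%, 3.33% and 1.37%, so the 2 groups did not overlap. The mean difference was 36.0 percentage points (39.0% ± 26.9, n = 7, against 3.04% ± 2.46, n = 5), with an exact permutation p of 0.00884 and 0.0606 after adjustment. The difference depended on the level asked of a marker: counted at 1 TPM the shares were 83.8% and 81.8%, a difference of 1.91 points (exact permutation p = 0.745). With 2 or more markers it was 34.8 points and the groups overlapped, and with the score margin of 2 it was 19.9 points. The score margin also dropped NSC P0 and NSC P1, which had the highest interneuron shares. Against NBN, at 20.1% ± 20.4 (n = 4), the exact permutation p was 0.255, and 5 of the 10 cells of NBN P3 held the set.

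Pooled over stages, most interneuron-holding members lacked Neurod6 at 10 TPM, but this differed by stage. Neurod6, a rule gene, reached 10 TPM in 17 of these 62 members and in 146 of the 184 others. Emx1, a factor of the dorsal telencephalon, reached it in 3 and 37, so most of both groups lacked it. At E11.5 none of 14 interneuron-holding members had Neurod6 at that level, beside 6 of 23 other members, and at E13.5 all 4 did. At E15.5 it was 5 of 10 against 68 of 68 others, at E17.5 7 of 18 against 32 of 42, and at E18.5 0 of 6 against 7 of 13. Of the 62, 33 also held the G2/M set. The summed level of the 14 genes ranged from 68.0 to 2058 TPM over the NSC libraries (median 525.98), from 20.6 to 68.8 TPM in BP and from 60.0 to 878 TPM in NBN. All 14 genes had a mean of 1 TPM or more in at least one NSC library. Slc32a1, the vesicular GABA transporter, reached 10 TPM in only 4 members and Sst, a peptide of one interneuron class, in 5. Their own part in the differences between populations was not tested.

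Cajal-Retzius cells, early reelin neurons of the cortical surface, were rare: 6 of 246 members held their set, a mean of 1.58% ± 1.98 over libraries (n = 7), against 5.99% ± 7.58 in BP (n = 5) and 1.87% ± 1.43 in NBN (n = 4). The adjusted exact permutation p-values were 0.234 and 0.842. None of the 246 members held the microglia, endothelial, mural or choroid plexus set, which allows a share of up to 1.49% for each by the exact interval.

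Shares of members holding layer genes differed between stages, each of which is 1 library and so has no test. The deep layer set of 10 genes was held by 2 of 37 E11.5 members (5.41%), 22 of 37 E13.5 members (59.5%), 32 of 78 E15.5 members (41.0%), 16 of 60 E17.5 members (26.7%) and 1 of 19 E18.5 members (5.26%). The upper layer set of 11 genes was held by 12, 19, 63, 45 and 10 of the same numbers of members (32.4%, 51.4%, 80.8%, 75.0% and 52.6%). In BP the deep layer share was 47.2% at E12.5 and 66.7% at E14.5, then 31.6%, 23.3% and 23.3%, and the upper layer share went from 37.5% at E12.5 to 97.3% at P0. Fezf2, which specifies neurons projecting below the cortex, was at 10 TPM in 18 of 37 members at E13.5 and 30 of 78 at E15.5, but in 5 of 60 at E17.5 and 0 of 19 at E18.5.

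The synapse set was held by 29.7% of members at E11.5, 59.5% at E13.5, 89.7% at E15.5, 68.3% at E17.5 and 52.6% at E18.5, against 74.7% to 95.6% in the BP libraries and 95.3% to 100% in the first 3 NBN libraries. The members at E15.5 are within the range of BP and below the first 3 NBN libraries, and the members at E11.5 are the lowest of the libraries with over 10 neuron-profile cells.

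**Figure D3:**
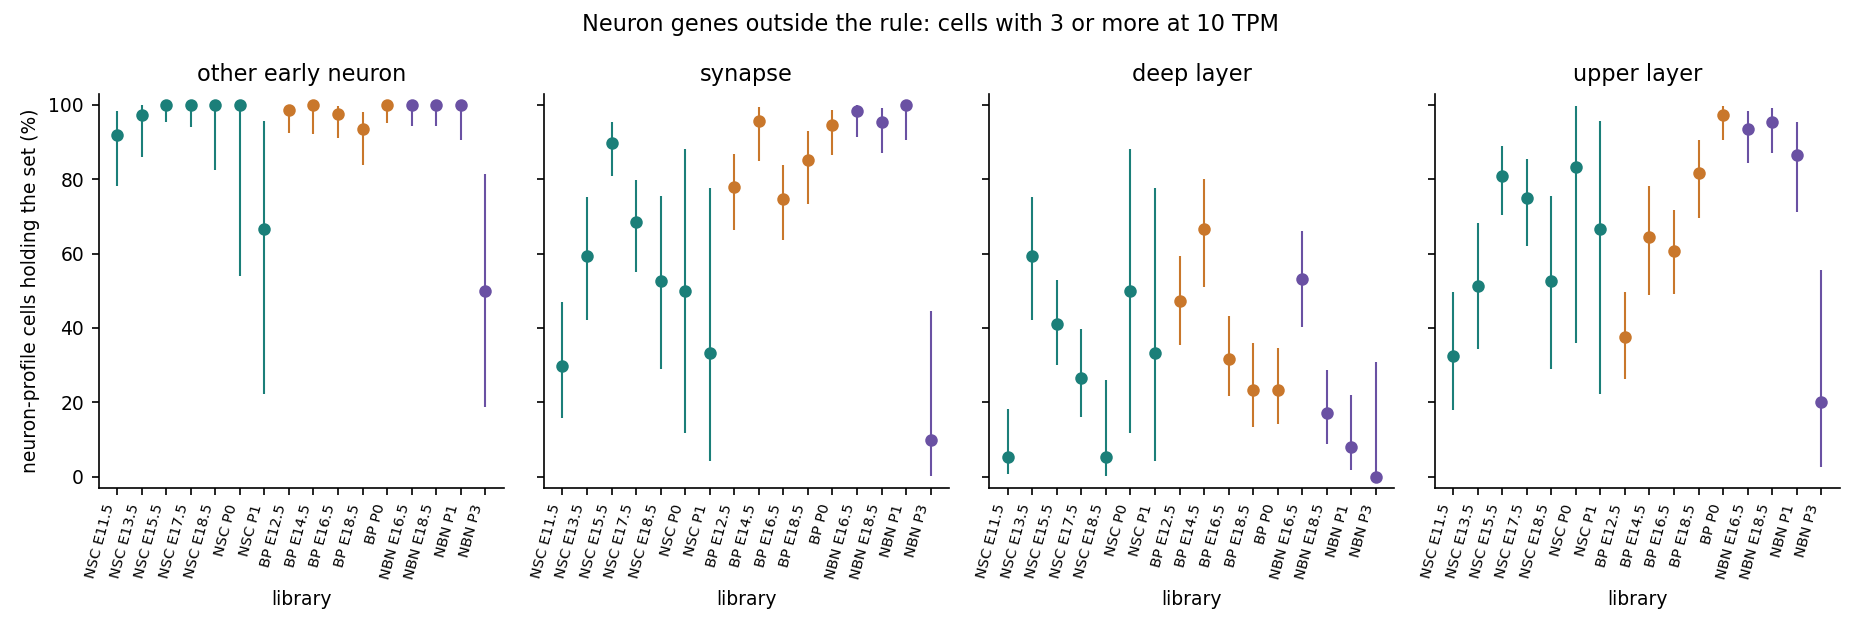
Share (%) of neuron-profile cells holding 3 or more genes at 10 TPM of 4 neuron sets outside the rule, by library (NSC green, BP orange, NBN purple), with 95% exact binomial intervals. Synapse and upper layer shares of NSC-file members peak at E15.5 among the libraries with over 10 members (89.7% and 80.8%), and deep layer shares at E13.5 (59.5%).

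Each cell was also set against 3 mean profiles over 10508 genes without the rule genes: the other cells of the NSC files without E10.5, BP neuron-profile cells, and NBN neuron-profile cells without P3, always leaving out the cell itself. Of the 246 members, 208 (84.6%) had their highest correlation with the BP profile, 28 (11.4%) with the other NSC-file cells and 10 (4.07%) with NBN. The median correlation across genes was 0.503 with BP, 0.470 with NBN and 0.441 with the other NSC-file cells. The references sorted cells of their own kind well, since 313 of 329 BP, 140 of 173 NBN and 272 of 286 other NSC-file cells were closest to the profile of their kind. The 286 include 85 E10.5 cells that were not part of the reference, and all 85 were closest to it. By stage, 70 of 78 members at E15.5 were closest to BP and 8 to NBN, whereas 2 of 6 at P0 and 4 of 6 at P1 were closest to the other NSC-file cells. This is a description, since genes are not independent and references differ in age and number of cells.

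**Figure D4:**
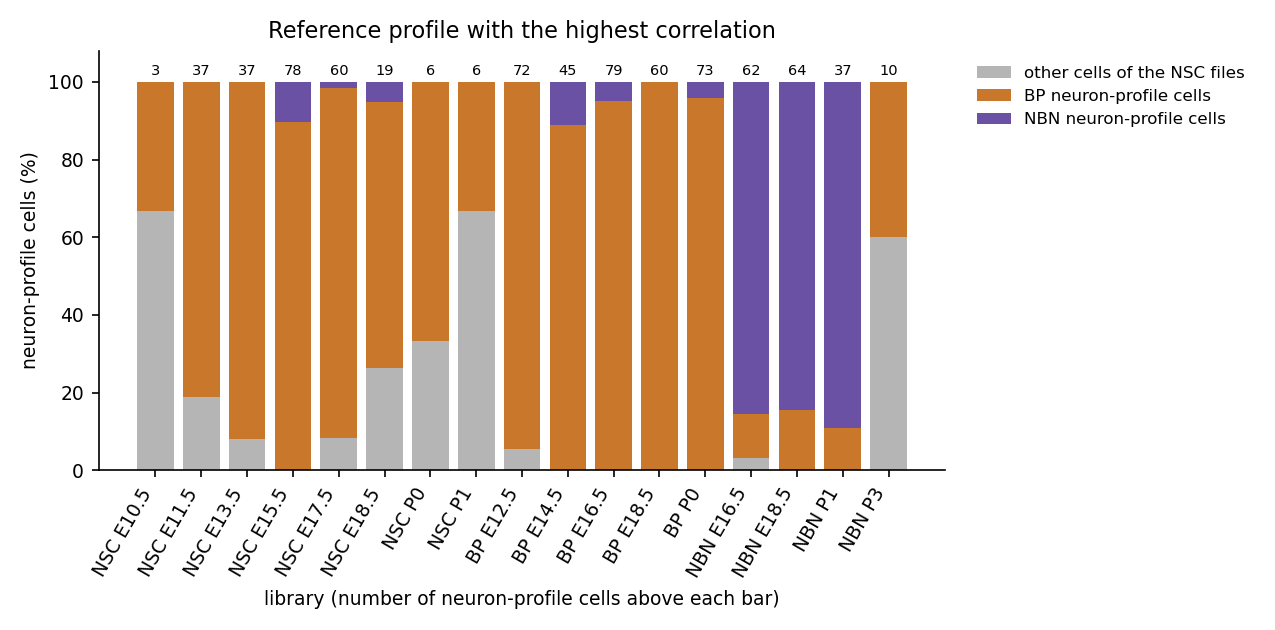
Share (%) of neuron-profile cells of each library whose highest correlation over 10508 genes was with other NSC-file cells (grey, reference without E10.5), BP (orange) or NBN (purple, reference without P3) neuron-profile cells. Numbers above the bars are cells. The BP colour fills 89.7% of NSC E15.5 and 90.0% of NSC E17.5, and NBN fills 10.3% and 1.67%.

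Averaged over the members of a library, the E15.5 profile correlated at 0.858 to 0.885 with the 5 BP libraries, at 0.552 to 0.864 with the 4 NBN libraries and at 0.698 with the 8 other cells of its own file, across 13965 genes. At E13.5 the values were 0.811 to 0.841, 0.554 to 0.791 and 0.799. At P1 they were 0.599 to 0.611, 0.499 to 0.589 and 0.570, on 6 members.

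The test between populations used 1 value per library, log2 of the mean TPM over its neuron-profile cells plus 1, with age as a covariate, in limma. Against NBN, 14 of 13981 genes tested passed an adjusted p of 0.05 (percent called 0.1), 9 higher in NSC-file members (0.0644) and 5 lower (0.0358). One of the lower genes, Stmn2, is a rule gene, so its call is no finding. The median of all genes was -0.30, and 1798 genes were at an unadjusted p under 0.05, 511 higher (3.65%) and 1287 lower (9.21%). That excess of lower genes depended on the setting: it was 838 higher and 934 lower with quantile normalization (median 0.06). With libraries of 10 or more neuron-profile cells it was 484 and 536 (median -0.005). Genes of mitosis led the higher ones: Kif22, a chromosome-arm kinesin, by 6.49 ± 1.11 (SE), Spc25, a kinetochore subunit, by 6.41 ± 1.01, Cdca3 by 5.79 ± 0.95, Cdca8, a subunit of the chromosomal passenger complex, by 5.05 ± 0.91, and Melk, a kinase of dividing cells, by 4.52 ± 0.83. Phgdh (5.59 ± 0.95), the G1 cyclin Ccnd2 (4.31 ± 0.77), the small GTPase Rnd2, which acts in neuron migration (3.49 ± 0.63), and the nucleosome-binding Hmgn2 (1.93 ± 0.32) were the others. Their limma adjusted p-values were 0.0366 or 0.0475.

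Spc25 shows the pattern by library. Its mean over members was lowest at E15.5 (13.2 TPM), had a median of 195 TPM over 7 NSC libraries and was highest at P1 (271 TPM). It was 90.5, 23.1, 1.58, 40.6 and 15.4 TPM in BP from E12.5 to P0, and 1.88, 0.122, 0 and 0 TPM in NBN from E16.5 to P3. Every NSC library lay above every NBN library, while E15.5 and E17.5 (80.1 TPM) lay within the range of BP. Kif22 ranged from 20.4 TPM at E13.5 to 1980 TPM at P1 (median 117) in NSC, and was 2.51, 0.0614, 0.516 and 0.499 TPM in NBN. Rnd2 ranged from 208 to 508 TPM in NSC (median 309) and from 468 to 725 TPM in BP, and was 32.8, 13.3, 8.44 and 178 TPM in NBN, so it too did not overlap NBN. Ccnd2 and Hmgn2 overlapped: Ccnd2 was 505 TPM in NBN P3 against a lowest NSC value of 157 TPM.

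**Figure D5:**
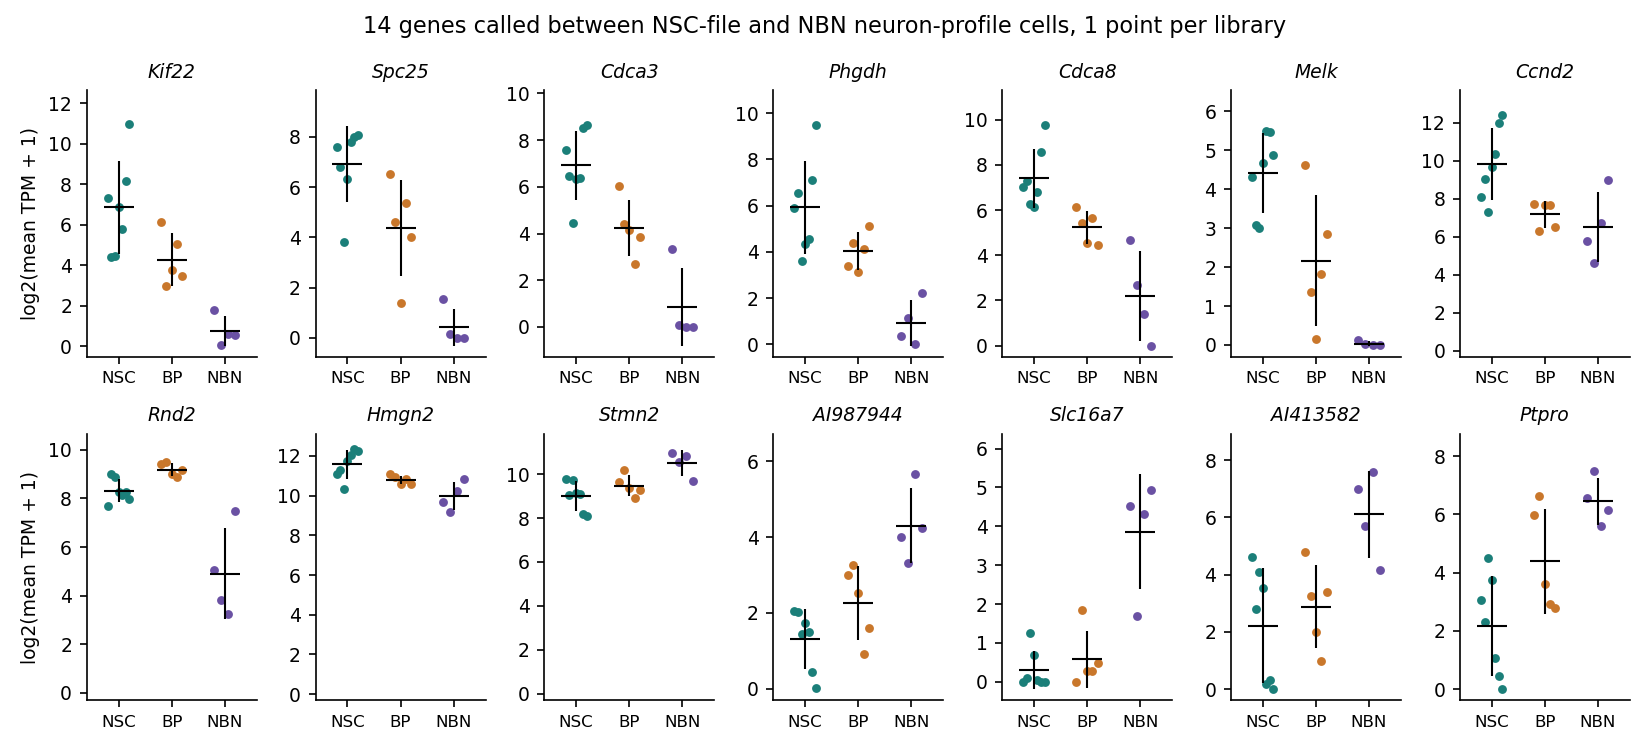
Level, as log2(mean TPM + 1) over neuron-profile cells, of the 14 genes called between NSC-file and NBN neuron-profile cells, 1 point per library. Stmn2 is a rule gene and is shown as a description. Horizontal bars are means and vertical bars SD over 7 NSC, 5 BP and 4 NBN libraries, and each panel has its own linear axis. For Spc25 the NSC points lie between 3.83 and 8.09 and the NBN points between 0 and 1.53.

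In GENCODE M21 (GRCm38), Kif22 lies at chr7:127027729-127042471, Spc25 at chr2:69193895-69206194 and Phgdh at chr3:98313170-98339990, all on the minus strand, and Rnd2 at chr11:101464999-101471853 and Ptpro at chr6:137252319-137463233 on the plus strand. Values are per gene, so no exon or UTR is singled out.

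Promoters of the called mitotic genes were looked at because these genes were called higher in the same comparison. Repressor complexes of resting cells are known to act on promoters of mitotic genes through CHR elements. Whether they did so here was not tested. CCAAT boxes were counted as well, with no repressor implied for them. All 5 genes had an entry in the RefSeq promoter table (GRCm38.p6), and the 250 bases before the RefSeq start were searched on both strands for CCAAT and for the CHR letters TTTGAA, which do not overlap. CCAAT was found 2 times in Spc25, Cdca3 and Kif22, 3 times in Cdca8 and not in Melk. TTTGAA was found 2 times in Kif22 and in none of the other 4. Of all 32851 promoters 33.8% held CCAAT, 16.0% TTTGAA and 5.55% both. Below are the upstream stretches of Spc25 (chr2:69206214-69206463, minus strand) and Kif22 (chr7:127042472-127042670, minus strand, ending where the annotated gene begins), 5′ to 3′, with matches on either strand in capitals. Against the GENCODE gene spans, the Cdca3 and Cdca8 stretches lie inside the annotated genes, as do the ends of those of Kif22 and Melk. The printed part of Kif22 holds 1 of its 2 CCAAT and 1 of its 2 TTTGAA matches. A match describes letters and is not a bound site.
Spc25: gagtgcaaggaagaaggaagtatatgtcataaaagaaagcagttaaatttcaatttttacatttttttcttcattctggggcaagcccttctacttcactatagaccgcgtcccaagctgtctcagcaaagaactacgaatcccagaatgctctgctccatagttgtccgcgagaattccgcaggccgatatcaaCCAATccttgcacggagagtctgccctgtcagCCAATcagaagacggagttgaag
Kif22: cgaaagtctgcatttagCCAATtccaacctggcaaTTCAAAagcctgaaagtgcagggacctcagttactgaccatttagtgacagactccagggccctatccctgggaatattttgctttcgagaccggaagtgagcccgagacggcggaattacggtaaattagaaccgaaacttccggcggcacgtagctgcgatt

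Lower in members were Ptpro, a receptor phosphatase of neurons (-5.33 ± 0.82), AI413582 (-5.11 ± 0.85), the monocarboxylate transporter Slc16a7 (-3.52 ± 0.63) and AI987944 (-3.46 ± 0.63). Ptpro was 0 TPM at P1, had a median of 3.90 TPM and reached 21.7 TPM at E15.5 in NSC, and was 93.0, 179, 47.1 and 70.4 TPM in NBN from E16.5 to P3. These groups did not overlap, and BP lay between, from 5.96 to 98.9 TPM.

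These calls rested on few libraries. All 14 genes kept their sign under every alternative run, but each lost its call in 8 to 14 of 16 leave-one-library-out fits, and no gene was called without NSC E11.5, NSC E18.5, NSC P0, BP E14.5, BP E18.5 or NBN P1 (the other populations share the estimate of spread). Without NSC P1, which had 6 members, 1 gene was called, and it was not among the 14. With libraries of 10 or more neuron-profile cells, or with the score margin of 2, no gene among the 14 was called either. Without NBN P3, 38 genes were called higher and 77 lower, and without NSC E15.5, 59. With the mean over cells of log2(TPM + 1) in place of the log of the mean, 90 were called, 22 higher and 68 lower. Without NBN P3, NSC P0 and NSC P1, a setting added after seeing the data, 11 genes were called, of which 2 were among the 14: Rnd2 (4.12 ± 0.43) and the rule gene Stmn2, which is not counted as a finding.

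In that last fit Eomes, the basal progenitor factor, was among the called genes. Mfap4 (5.85 ± 0.58, limma adjusted p = 0.00164), Eomes (5.79 ± 0.72, limma adjusted p = 0.00485), Dusp14, a phosphatase (5.15 ± 0.71), and the long noncoding RNA Rmst (4.17 ± 0.59) were higher in members, as were Mdk, a growth factor, and Rnd3. Mfap4, Eomes and Dusp14 were also called, with Eomes at limma adjusted p-values of 0.00118 to 0.049, with a neuron score at least 2 log2 units above the radial glia score, with libraries of 10 or more neuron-profile cells, and without members and comparison cells that held another cell type's markers. Each of these settings also dropped NSC P0 and NSC P1 for too few cells, so they are not separate checks. In NSC P0 and P1, Dusp14 was 0.69 and 0 TPM and Eomes 198 and 0.14 TPM. With all libraries Mfap4, Eomes and Dusp14 were not called: Eomes was 4.38 ± 1.17 (limma adjusted p = 0.152) and Mfap4 3.05 ± 1.22 (limma adjusted p = 0.298). Dusp14 and Rmst were named after their values were seen. Mfap4 was 0 TPM in NSC P0 and P1 and 56.1 to 176 TPM in the other 5 NSC libraries, against 1.00, 0.76, 0.04 and 0 TPM in NBN. Eomes drives the reporter used to sort NBN but not NSC.

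When members and comparison cells that held another cell type's markers were left out, 10 genes were called. The interneuron set counted among such markers, so all 62 interneuron-holding members were left out, and 33 of these held the G2/M set. That setting took out 84 members, among them 29 of 37 at E11.5, and left NSC P0, NSC P1 and NBN P3 with fewer than 5 cells, so those libraries dropped out too. The 5 mitotic genes had lower values in it, with no call: Spc25 was 4.21, Cdca3 3.24, Kif22 2.64 (limma adjusted p = 0.612), Melk 1.96 and Cdca8 0.45 (limma adjusted p = 0.927). The median of the G2/M list was 1.72, with 17 of 19 genes positive and 7 at an unadjusted p under 0.05. Of all genes, 41.7% were positive there (median -0.20). Over all alternatives the limma adjusted p ran from 0.0151 to 0.76 for Kif22 and from 0.00435 to 0.753 for Spc25. Npy, a neuropeptide (-7.63 ± 0.51), and Gucy1a3 (-6.57 ± 0.99) were lower in members in that setting, and both were named after their values were seen. With all cells and libraries they were not called, at -4.73 (limma adjusted p = 0.255) and -2.57 (limma adjusted p = 0.479). Npy was then 143 TPM in NSC E11.5 and 199 TPM in NSC E17.5, against 204, 121, 237 and 0 TPM in NBN from E16.5 to P3, so the groups overlapped.

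By list, all 19 G2/M genes had a positive difference from NBN, all 19 at an unadjusted p under 0.05 and 2 called (Cdca3 and Cdca8), with a median of 3.85 against -0.30 for all genes. Of all genes tested, 37.4% were positive and the others mostly negative, which is the share to set beside each list. Mki67 was 3.72 ± 0.95 and Top2a 3.85 ± 1.21. Of 19 G1/S genes 18 were positive (median 1.21, none called). In the basal progenitor list 12 of 14 genes were positive (median 1.27, none called), and Gadd45g was 3.53 ± 0.76 (limma adjusted p = 0.0888). In the Notch list 9 of 10 tested were positive (median 1.48, none called), a list that holds no rule gene. Neuron lists pointed the other way: 16 of 18 other early neuron genes (median -0.93) and 15 of 16 synapse genes (median -0.88) were negative, none called, with Camk2b, a synaptic kinase, at -4.94 ± 0.96 (limma adjusted p = 0.0589) and Mef2c, a factor of maturing neurons, at -5.94 ± 1.27 (limma adjusted p = 0.0888). The mitochondrial genome share of TPM, a sign of RNA quality, was 5.47%, 7.51%, 20.0% and 13.2% in NBN from E16.5 to P3 and 4.47% to 7.36% over the 7 NSC libraries, so that 2 of 4 NBN libraries stood apart, and 11 of 13 mitochondrial genes were lower in members at an unadjusted p under 0.05. Its part in the result was not tested.

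Against BP no gene was called (percent called 0), and the smallest limma adjusted p was 0.163, for Gad1. At an unadjusted p under 0.05 there were 1042 genes, 113 higher in members (0.808%) and 929 lower (6.64%), and the median of all genes was -0.44. This excess of lower genes depended on the setting. With quantile normalization 491 were higher and 467 lower (median 0.02), and with weights by number of cells 160 and 419 (median -0.17). The lack of calls does not show that members and BP cells are alike: on simulated data of the same size the fit recovered 57.6% of changes of 4 log2 units and 25.4% of changes of 2 units. The alternatives called 0 to 6 genes.

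Interneuron genes were the list farthest from BP, with 13 of 13 tested genes positive (median 2.06), 7 at an unadjusted p under 0.05 and none called. Gad1 was 5.12 ± 0.83, from 3.37 TPM at E13.5 to 401 TPM at P1 in NSC (median 25.2), and at most 0.555 TPM in any BP library, so the groups did not overlap. Dlx5 was 5.07 ± 1.08, Dlx2 3.21 ± 0.71 and Gad2 2.54 ± 0.68. In the G2/M list 17 of 19 genes were positive (median 1.49), and in the basal progenitor list 4 of 14 (28.6%, median -0.60). Of all genes tested 25.2% were positive (median -0.44), so the basal progenitor share is near that of all genes. When cells holding another type's markers were left out, 10 of 19 G2/M genes were positive (median 0.20), none higher and 1 lower at an unadjusted p under 0.05, and 3 of 8 interneuron genes tested were positive (median -0.08). That setting left out every cell holding the interneuron set, so the fall of the interneuron list was set by the choice and is no check. Of the 62 interneuron-holding members, 33 held the G2/M set and were left out too, and NSC P0 and NSC P1 dropped out. In that setting 27.7% of all genes were positive (median -0.39). Nhlh1, a factor of newly born neurons, was -2.53 ± 0.60 (limma adjusted p = 0.428), with 0 TPM at E18.5, P0 and P1, a median of 4.99 TPM and 21.8 TPM at E13.5 in NSC, against 11.9 to 81.0 TPM in BP. Eomes was -0.62 ± 1.01.

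Libraries of the same named stage can be set side by side. At E18.5 the G2/M set was held by 26.3% of 19 members, 6.67% of 60 BP and 3.13% of 64 NBN neuron-profile cells. There the basal progenitor set was held by 36.8%, 68.3% and 18.8%, and the interneuron set by 31.6%, 3.33% and 6.25%. At P0, 5 of 6 members (83.3%) held each of these sets, while in BP the G2/M set was held by 4.11% of 73 cells, the basal progenitor set by 60.3% and the interneuron set by 1.37%. The basal progenitor share of members was thus below that of BP at E18.5 and above it at P0. With 1 library a group these values have no replicate check.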

How the data were processed

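Single-cell RNA-seq of 1094 mouse dorsal cortex cells in 17 libraries was analysed. The deposited values are TPM per gene and cell, given by the authors for 23078 genes. The submitters' processing notes name kallisto 0.43.0 and the builds GRCm38.p2 and mm10, with no role given. Of the gene IDs, 22361 matched GENCODE M21. Cell columns sum to 999993 to 1000013, and TPM keep no depth, so genes per cell stand in for it and no count model was used. In 7 near-empty columns the deposited values are whole numbers and were recorded as a score. Those cells had under 1000 genes and entered no result.

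Cells with 1000 or more genes at 1 TPM were scored, and neuron-profile cells were averaged per library. Libraries with 5 or more such cells (7 NSC, 5 BP, 4 NBN) entered limma 3.58.1 (R 4.3.3) as log2(mean TPM + 1) with a mean-variance trend and age as covariate (postnatal days added to 18.5). On this scale the change of weakly expressed genes is understated. The 13981 genes at a mean of 1 TPM in 3 libraries were tested, with Benjamini-Hochberg adjustment at 0.05. All 3 populations shared 1 estimate of spread, and both contrasts share the NSC libraries. The labels name no animals or batches, so p-values measure only the spread between libraries. Shares of cells holding a set were compared by two-sided exact permutation over libraries (330 arrangements against NBN, 792 against BP, smallest p 0.00303 and 0.00126), in a family of 10 tests without an age term. Intervals are 95% exact binomial and cover counting error only. Python 3.11.15, numpy 2.4.6, pandas 2.3.3, scipy 1.17.1 and matplotlib 3.10.9 were used.

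Members and the 26 gene lists were chosen with earlier results of these data known, so no list is independent support. Genes named are those called, the 10 highest and 10 lowest against the other cells of the files, list genes, and any said to be chosen after their values were seen. The limma step was tested on simulated data, where 48.5% of changes of 4 log2 units were recovered against NBN and 57.6% against BP. Alternatives covered pseudocount, filter, averaging, scaling, age, stages, cell minimum, weights, score margin, cells of other types, and each library left out. Some genes are not reported here.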

Additional observations from a re-analysis of the deposited data

Results flagged for a closer look

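Of 55 groups of 4 to 10 libraries examined for a single library far from the others, 4 had one, and chance alone would mark about 1 group in 20. The share of cells with a neuron profile in NBN P3 was 25.6%, against 94.9% to 98.4% in the other 3 NBN libraries. Spc25 in NSC E15.5 was 3.83 on the log2(mean TPM + 1) scale, against 6.34 to 8.09 in the other 6 NSC libraries. Spc25 in NBN E16.5 was 1.53, against 0 to 0.17 in the other 3. Cdca3 in NBN E16.5 was 3.34, against 0 to 0.08 in the other 3.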

How the results depend on the processing

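The number of genes called against NBN (14) was 9 with a pseudocount of 0.1, 5 with 10, 0 with no filter on low values (smallest limma adjusted p 0.0886, 1975 genes at an unadjusted p under 0.05), 24 with a filter of mean TPM 10, 90 with the mean over cells of log2 values, 36 with quantile normalization, 0 from E15.5 on, 9 with libraries of 3 or more cells, 4 with 10 or more, and 3 with a score margin of 2 log2 units. Leaving out 1 library gave 0 to about 1.2e+02 genes, the latter without NBN P3 (38 higher and 77 lower). Against BP (0 called) there was 1 gene with no filter, 3 from E15.5 on and 1 with all cells of the BP and NBN files, and 0 to 6 with 1 library left out.

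With libraries of 3 or more cells, which adds NSC E10.5, the differences in share passed the threshold for basal progenitor genes against NBN (46.8 percentage points), G2/M genes against NBN (40.0) and BP (36.1), and interneuron genes against BP (35.3), each at an adjusted exact permutation p of 0.0303. The Cajal-Retzius difference from NBN changed sign with markers at 1 TPM (3.88), 2 or more markers (1.30), the score margin of 2 (0.493), libraries of 3 or more (3.68) and of 10 or more cells (0.339). The score margin also reversed the interneuron difference from NBN (-4.71) and the other radial glia difference from BP (-5.56), which was -0.523 with libraries of 10 or more cells and without NBN P3, NSC P0 and NSC P1. Both the score margin and the minimum of 10 cells dropped NSC P0 and NSC P1. The cause was not tested.

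Leaving out 1 library gave ranges against NBN of 16.9 to 28.8 (other radial glia), 40.9 to 52.1 (basal progenitor), 30.9 to 42.2 (G2/M), 11.497 to 28.8 (interneuron) and -0.931 to 0.158 points (Cajal-Retzius). Against BP they were 2.39 to 11.2, -16.6 to -5.41, 27.0 to 38.3, 28.6 to 40.7 and -5.91 to -1.39 points, in the same order.

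With the score margin of 2, members were 35.0% of NSC-file cells, 41.4% at E11.5, 40.9% at E13.5, 56.6% at E17.5, 18.2% in the E18.5 file, 2.22% in P0 and 4.26% in P1. With the median over 8 genes, E10.5 had 13%. No paired analysis was possible because the replicate numbers name cells and a library is 1 value. TPM keep no depth, so values near 0 cannot be set against a counting floor.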
